A study of Homo sapiens with 6 samples.

Results

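The genes described here are the collagen chain genes, measured by RNA sequencing of FLAG immunoprecipitates and of the cell lysate in HK2 cells. HK2 is an immortalised human kidney line of proximal tubule origin. All cells carried a plasmid for FLAG-tagged VMP1, a multi-spanning protein of the endoplasmic reticulum (ER) that acts in autophagy and lipid transport. RNA was taken 48 hours after transfection, either from the total lysate (3 libraries, titled positive control) or after RNA immunoprecipitation with magnetic beads carrying a FLAG antibody (3 libraries, titled FLAG VMP1 IP). VMP1 in these cells came from a transfected plasmid beside the cell's own gene, all libraries came from 1 cell line, and a FLAG immunoprecipitate from cells without the plasmid was not analysed here. A gene was a member when its symbol was COL, a number, A and a number, and at least 1 of its transcripts was typed as protein coding. Of 43 matching symbols, COL9A1 lacked a protein-coding transcript type, which left 42 members among 61806 genes. They comprised 11 fibrillar, 9 FACIT, 6 basement membrane (collagen IV), 4 collagen VI, 4 transmembrane, 3 network (VIII and X) and 2 multiplexin genes, COL7A1, and 2 other genes (COL26A1 and COL28A1).

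Collagen chains are made on the rough ER, where prolyl and lysyl hydroxylases modify them and chaperones help them wind into trimers. The rigid trimers need dedicated export machinery at ER exit sites, among them TANGO1 (gene MIA3). Fibrillar collagens build the fibres of connective tissue, while collagen IV forms the sheet-like network of the basement membrane on which tubule cells sit. FACIT collagens decorate fibrils, collagen VI forms beaded microfilaments, collagen VII anchors epithelia to the stroma, and transmembrane collagens stay in the plasma membrane.

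Levels below are CPM, a gene's counts relative to its library's total after scaling by edgeR's TMM factors, and library totals ran from 77753608 to 92948069 counts in lysates and from 54363555 to 59293096 in immunoprecipitates. VMP1, the tagged gene, stood at 297, 301 and 306 CPM in lysates 1 to 3, at 2347 CPM in immunoprecipitate 1, at 2685 CPM in immunoprecipitate 3 and at 274 CPM in the library labelled immunoprecipitate 2. That library therefore showed no excess of VMP1 RNA over lysate, and the tests of collagen genes are given with and without it. The log2 fold change of VMP1, immunoprecipitate minus lysate, was 2.55 (SE 0.78, edgeR quasi-likelihood test with Benjamini-Hochberg adjustment, adjusted p = 0.156) over all 6 libraries and 3.07 (SE 0.07, adjusted p = 4.83e-06) without it. The labels do not say whether the libraries of a group are separate cultures, and the p-values therefore describe the spread among these libraries, which may be technical. Of the tubule markers, PAX8, CDH6 and HAVCR1 were abundant in every lysate, while CUBN, AQP1, SLC34A1 and SLC5A2, genes of mature tubule transport, stood at 3.76 CPM or less there. Since these are bulk samples, fewer cells of a type and less RNA per cell cannot be told apart.

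Stretches upstream of the transcription start are shown for COL4A1 and COL4A2, the most abundant collagen pair here and the pair with the most negative called fold changes, and for COL5A1 and COL12A1, which took the largest shares of collagen counts among the genes above lysate in the library labelled immunoprecipitate 2. They come from RefSeq (GRCh38.p14), whose promoter table matched 31 of the 42 members by symbol. COL4A1 (minus strand) and COL4A2 (plus strand) are transcribed away from each other on chromosome 13, with 126 bases between their starts, chr13:110307158-110307283, printed on the plus strand. For COL5A1 the 250 bases before the start are chr9:134641553-134641802 (plus strand), and for COL12A1 chr6:75206054-75206303 (minus strand). Capitals mark a GC box (GGGCGG, or CCGCCC on the other strand) or a CCAAT box (CCAAT or ATTGG).
COL4A1 and COL4A2: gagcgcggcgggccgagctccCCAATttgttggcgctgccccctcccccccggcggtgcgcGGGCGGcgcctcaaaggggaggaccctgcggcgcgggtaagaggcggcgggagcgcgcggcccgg
COL5A1: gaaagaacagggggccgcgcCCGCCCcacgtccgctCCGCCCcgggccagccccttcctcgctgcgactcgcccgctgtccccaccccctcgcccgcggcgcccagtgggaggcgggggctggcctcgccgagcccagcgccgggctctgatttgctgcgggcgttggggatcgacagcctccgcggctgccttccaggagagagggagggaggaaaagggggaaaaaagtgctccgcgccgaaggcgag
COL12A1: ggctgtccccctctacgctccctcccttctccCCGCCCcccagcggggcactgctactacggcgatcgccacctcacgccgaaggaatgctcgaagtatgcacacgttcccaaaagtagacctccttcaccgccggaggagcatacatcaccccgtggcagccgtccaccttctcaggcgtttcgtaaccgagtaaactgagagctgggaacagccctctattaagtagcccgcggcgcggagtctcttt

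The collagen IV stretch held 1 GC box and 1 CCAAT box, which 34.6% and 21.1% of 35116 promoters held in a window of 126 bases. The COL5A1 stretch held 2 GC boxes and the COL12A1 stretch 1, against at least 1 in 42.6% of promoters over 250 bases. None of the stretches held a TATA box (TATAAA or TTTATA), which 5.87% of promoters held over 126 bases and 10.7% over 250 bases. These matches describe the letters and are not binding data.

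Collagen RNA as a group was scarcer in the FLAG immunoprecipitates than in lysate. COL4A1, COL4A2, COL18A1, COL14A1 and COL22A1, which encode basement membrane and fibril-associated chains, were called lower over all 6 libraries. No collagen gene was called higher. In immunoprecipitates 1 and 3, which carried the excess of VMP1 RNA, nearly the whole group was below lysate. In the library labelled immunoprecipitate 2 the group was split, with most tested fibrillar chains above lysate and the collagen IV pair, COL18A1 and collagen VIII below it.

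By edgeR's quasi-likelihood test over all 6 libraries, 5 of the 33 collagen genes that passed the expression filter were lower at an adjusted p under 0.05, where 0.5% of all 20593 tested genes were lower. No collagen gene was higher, against 0.16% of all genes, and at an unadjusted p under 0.05 the counts were 10 lower and 0 higher. In that fit 4385 of all 20593 tested genes had an unadjusted p under 0.05, in either direction. DESeq2 called 9 of the 33 lower (5.9% of all genes) and 0 higher (9.43%), and limma with library weights called 22 of the 33 lower (26.1%) and 0 higher (23.3%). DESeq2 gave no p-value for COL1A1, COL1A2, COL4A6, COL5A1 and COL12A1, whose log2 fold changes there were positive, so it could not call them. It gave no adjusted p for COL4A4, COL19A1, COL20A1 and COL28A1 either. Without the library labelled immunoprecipitate 2, edgeR called 22 of 35 tested collagen genes lower, where 27.2% of 22062 tested genes were lower, and 0 higher, where 23.9% were. Leaving out any other library (lysate 1, 2 or 3, or immunoprecipitate 1 or 3) left 0 collagen calls and 0 calls among all genes, with the 5 genes' adjusted p between 0.147 and 0.399. The median log2 fold change of the 33 collagen genes was -0.84, beside 0.06 for all tested genes, and without the library labelled immunoprecipitate 2 it was -1.67 beside -0.06. That median stayed at -1.67 when the 4 genes with no counts in the remaining immunoprecipitates were set to their bound. Each bound still lay below the median, so this step could not move it.

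Each immunoprecipitate was also set against the lysates on its own. Immunoprecipitate 1 was below all 3 lysates for 27 of the 33 genes (45.9% of all genes) and above all of them for 3, namely COL20A1, COL24A1 and COL27A1 (41.7%). Immunoprecipitate 3 was below all 3 lysates for 28 (51.4%) and above them for 3, namely COL4A4, COL11A2 and COL24A1 (39.4%). The library labelled immunoprecipitate 2 was below all lysates for 13 (42.1%) and above them for 16 (40.9%). Its split was thus close to that of all genes, while immunoprecipitates 1 and 3 held a larger share of collagens below lysate than of all genes. The median shift from the lysate mean on the log2 CPM scale (prior count 2) was -1.92 in immunoprecipitate 1, 0.20 in the library labelled immunoprecipitate 2 and -2.14 in immunoprecipitate 3, beside -0.05, -0.01 and -0.21 for all tested genes. All 3 immunoprecipitates lay below all 3 lysates for 12 collagen genes (17.7% of all genes) and above them for 0 (13.4%). A further 9 genes were below all lysates in immunoprecipitates 1 and 3 and above all lysates in the library labelled immunoprecipitate 2 (16.4% of all genes), among them COL1A1, COL1A2, COL5A1 and COL12A1.

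**Figure D1:**
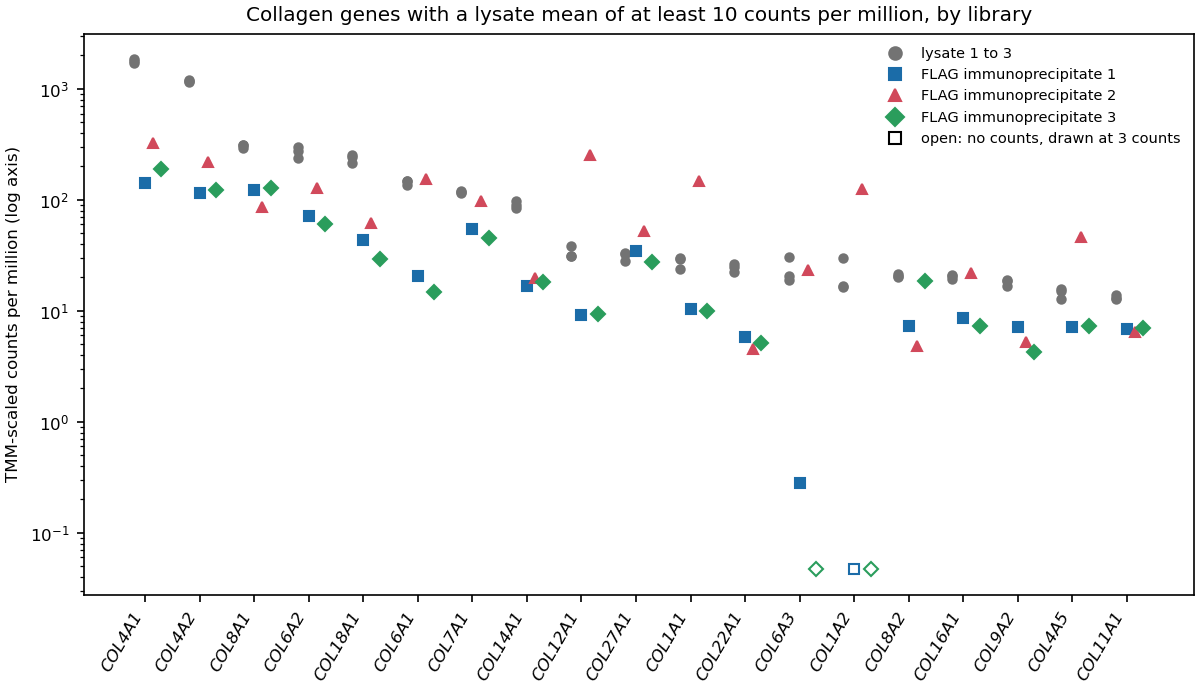
TMM-scaled CPM (log axis) of the 19 collagen genes with a lysate mean of at least 10 CPM, with 3 lysate points and 1 point for each immunoprecipitate, and open symbols for 0 counts drawn at the 3-count floor. COL4A1 lies between 1716 and 1850 CPM in the lysates and between 143 and 328 CPM in the immunoprecipitates, while COL1A2 has 0 counts in immunoprecipitates 1 and 3 and 125 CPM in the library labelled immunoprecipitate 2.

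Of the basement membrane genes, COL4A1 and COL4A2 encode the chains of the ubiquitous collagen IV network. COL4A1 (ENSG00000187498, chromosome 13, 110148963 to 110307157) stood at 1716, 1850 and 1783 CPM in lysates 1 to 3 and at 143, 328 and 188 CPM in immunoprecipitates 1 to 3. Every immunoprecipitate lay far below every lysate. The lysate mean was 1783 ± 66.8 CPM (SD, n = 3), and it exceeded the 3 immunoprecipitates 12.5-fold, 5.44-fold and 9.47-fold. The edgeR log2 fold change was -3.02 (SE 0.36, adjusted p = 0.0387) and -3.41 (SE 0.13, adjusted p = 9.8e-06) without the library labelled immunoprecipitate 2.

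COL4A2 (ENSG00000134871, chromosome 13, 110305812 to 110513209) stood at 1151, 1206 and 1171 CPM in lysates 1 to 3 and at 115, 217 and 122 CPM in immunoprecipitates 1 to 3. The order of the immunoprecipitates was that of COL4A1, and again none overlapped a lysate. Its log2 fold change was -2.96 (SE 0.31, adjusted p = 0.0343 by edgeR), and -3.30 (SE 0.05, adjusted p = 3.9e-06) without the library labelled immunoprecipitate 2. On the FPKM scale, which is per length, COL4A1 exceeded COL4A2 1.99-fold in lysates (SD 0.03, n = 3), 1.63-fold in immunoprecipitate 1, 1.98-fold in the library labelled immunoprecipitate 2 and 2.04-fold in immunoprecipitate 3. The lysate ratios ran from 1.96 to 2.02, so that immunoprecipitate 1 lay below them, immunoprecipitate 3 just above and the library labelled immunoprecipitate 2 among them. The annotated genes overlap by 1346 bases on opposite strands at their starts, and the use of strand in counting is not stated in the sources used here.

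COL4A5 encodes a chain of the glomerular and tubular network that is mutated in Alport syndrome. It stood at 15.8, 12.7 and 14.9 CPM in lysates 1 to 3, at 7.22 and 7.29 CPM in immunoprecipitates 1 and 3, and at 46.0 CPM in the library labelled immunoprecipitate 2. The lower and the higher libraries both lay outside the lysate range. The fitted difference was 0.48 on the log2 scale (SE 0.76, adjusted p = 0.749 by edgeR) over all libraries and -0.99 (SE 0.17, adjusted p = 0.0034) without the library labelled immunoprecipitate 2. COL4A4, a partner chain in the same network, stood at 0.184, 0.282 and 0.307 CPM in lysates 1 to 3, at 0 and 0.313 CPM in immunoprecipitates 1 and 3 and at 0.397 CPM in the library labelled immunoprecipitate 2. COL4A6, the partner of COL4A5 in smooth muscle basement membranes, stood at 0.382, 0.356 and 0 CPM in lysates 1 to 3, at 0 in immunoprecipitates 1 and 3 and at 3.06 CPM (162 counts) in the library labelled immunoprecipitate 2. Neither passed the test in either fit.

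COL18A1, the multiplexin whose end fragment is endostatin, stood at 216, 241 and 253 CPM in lysates 1 to 3 and at 43.5, 61.3 and 29.1 CPM in immunoprecipitates 1 to 3. The groups did not overlap, and the log2 fold change was -2.41 (SE 0.31, adjusted p = 0.0432 by edgeR), or -2.69 (SE 0.18, adjusted p = 6e-05) without the library labelled immunoprecipitate 2. COL18A1 overlaps SLC19A1 on the opposite strand, a gene at 17.9 CPM in lysates. The other multiplexin, COL15A1, stood at 0.737, 0.442 and 0.193 CPM in lysates 1 to 3, at 0.126 and 0.313 CPM in immunoprecipitates 1 and 3, and at 4.27 CPM in the library labelled immunoprecipitate 2. The latter was the sole library above 1 CPM, and the gene passed no test (adjusted p = 0.485 by edgeR).

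COL8A1, a short-chain network collagen of vessel walls and the cornea, stood at 296, 315 and 312 CPM in lysates 1 to 3 and at 123, 86.1 and 129 CPM in immunoprecipitates 1 to 3. All immunoprecipitates were below all lysates, with the library labelled immunoprecipitate 2 the lowest. Its log2 fold change of -1.45 (SE 0.21) missed the threshold (adjusted p = 0.0518 by edgeR), while -1.28 (SE 0.06) without that library passed it (adjusted p = 1.3e-05). COL8A2, its partner chain, stood at 20.5, 20.2 and 21.4 CPM in lysates 1 to 3 and at 7.25, 4.78 and 18.7 CPM in immunoprecipitates 1 to 3. Immunoprecipitate 3 lay just below the lysates, and the log2 fold change of -1.01 (SE 0.51) did not pass (adjusted p = 0.311 by edgeR), nor did -0.66 (SE 0.37, adjusted p = 0.192) without the library labelled immunoprecipitate 2. Per length, COL8A1 exceeded COL8A2 in FPKM 7.38-fold in lysates (SD 0.31, n = 3), 8.39-fold in immunoprecipitate 1, 8.96-fold in the library labelled immunoprecipitate 2 and 3.43-fold in immunoprecipitate 3.

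The collagen VI chains, which assemble as one trimer, differed from each other. COL6A2 stood at 239, 276 and 300.2 CPM in lysates 1 to 3 and at 71.3, 127 and 61.1 CPM in immunoprecipitates 1 to 3, without overlap. A log2 fold change of -1.65 was fitted (SE 0.32, adjusted p = 0.0866 by edgeR), and -2.02 (SE 0.12, adjusted p = 3.2e-05) without the library labelled immunoprecipitate 2. COL6A1 stood at 138, 148 and 149 CPM in lysates 1 to 3, at 20.6 and 14.7 CPM in immunoprecipitates 1 and 3 and at 154 CPM in the library labelled immunoprecipitate 2. The last value was just above the lysates. The log2 fold change of COL6A1 was -1.20 (SE 0.89, adjusted p = 0.47 by edgeR), and -3.03 (SE 0.15, adjusted p = 2.1e-05) without that library.

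COL6A3, the long chain of the same trimer, stood at 30.9, 20.7 and 18.9 CPM in lysates 1 to 3, at 0.283 CPM (18 counts) in immunoprecipitate 1, at 0 counts in immunoprecipitate 3 and at 23.2 CPM in the library labelled immunoprecipitate 2. A count of 0 allows up to 3 counts, or 0.0469 CPM, in immunoprecipitate 3. This bound and the other counting intervals here cover counting error only, since amplified reads without molecular identifiers are not independent molecules. The library labelled immunoprecipitate 2 lay inside the lysate range. The gene did not pass over all libraries (adjusted p = 0.667 by edgeR) and passed without that library (adjusted p = 0.00073). Per length, the FPKM ratio of COL6A1 to COL6A2 was 0.52 in lysates (SD 0.04, n = 3), 0.28 and 0.23 in immunoprecipitates 1 and 3 and 1.17 in the library labelled immunoprecipitate 2.

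COL7A1, the anchoring fibril collagen, stood at 119, 120.3 and 115 CPM in lysates 1 to 3 and at 54.7, 97.4 and 45.5 CPM in immunoprecipitates 1 to 3. The groups did not overlap, with the library labelled immunoprecipitate 2 nearest the lysates. In the fit, COL7A1 had a log2 fold change of -0.84 (SE 0.31, adjusted p = 0.202 by edgeR), and -1.22 (SE 0.09, adjusted p = 9.1e-05) without that library.

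**Figure D2:**
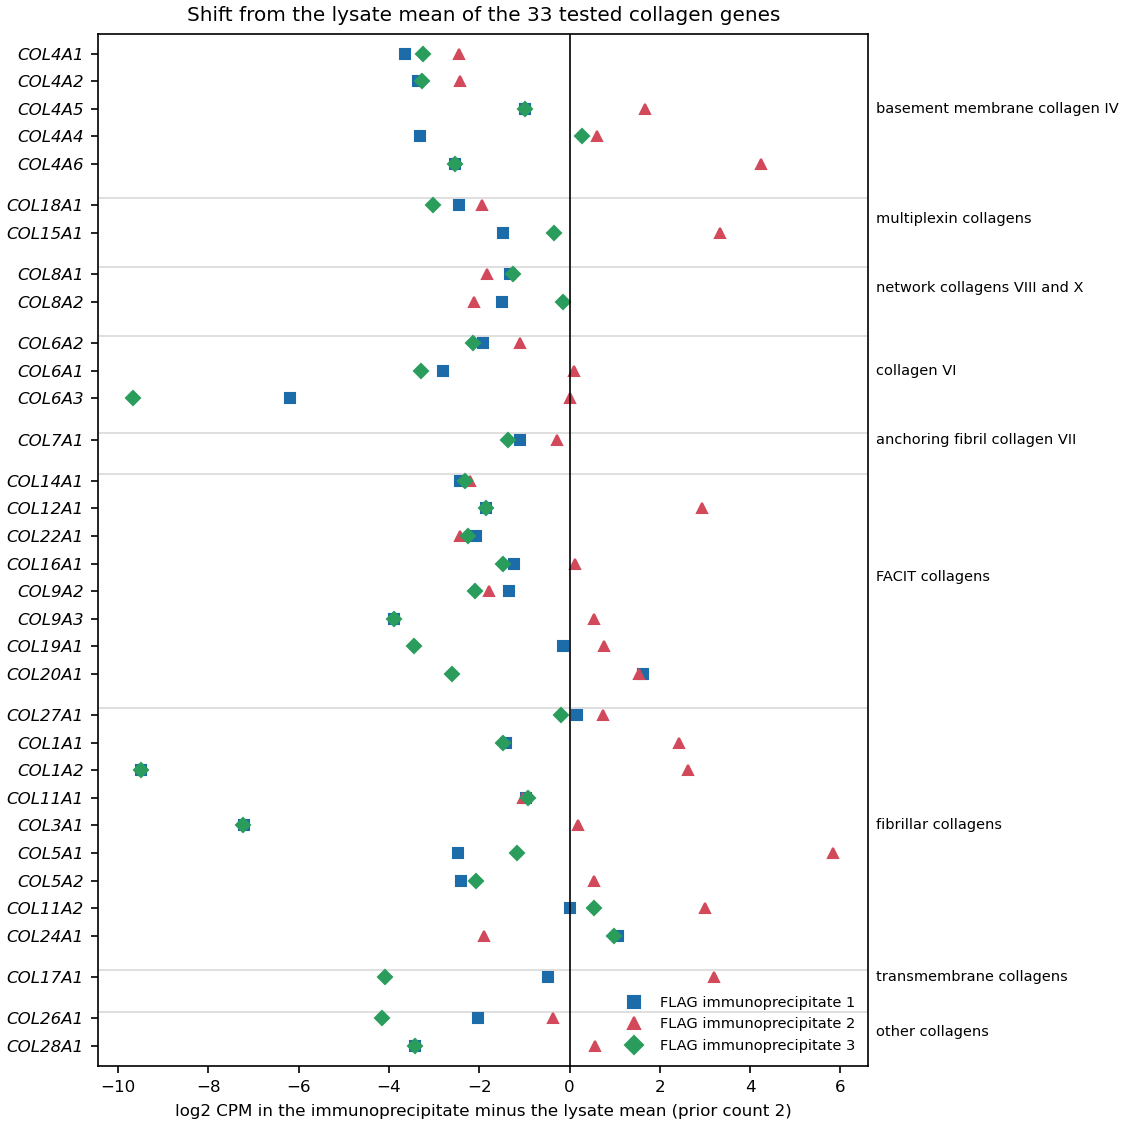
Shift of each immunoprecipitate from the lysate mean on the log2 CPM scale (prior count 2) for the 33 tested collagen genes, grouped by class, with 1 symbol for each immunoprecipitate. COL14A1 has nearly equal shifts of -2.43, -2.20 and -2.33 in immunoprecipitates 1 to 3, while COL5A1 has -2.47 and -1.16 in immunoprecipitates 1 and 3 and 5.84 in the library labelled immunoprecipitate 2; genes with 0 counts, such as COL1A2 at -9.49, sit where the prior count puts them.

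Among the FACIT genes, COL14A1, which binds along collagen I fibrils, stood at 85.2, 90.0 and 97.6 CPM in lysates 1 to 3 and at 16.8, 19.7 and 18.1 CPM in immunoprecipitates 1 to 3. The immunoprecipitates lay 5.40-fold, 4.61-fold and 5.03-fold below the lysate mean, with no overlap. Its log2 fold change was -2.32 (SE 0.17, adjusted p = 0.0323 by edgeR), and -2.37 (SE 0.09, adjusted p = 8.8e-06) without the library labelled immunoprecipitate 2. COL22A1, a FACIT of tissue junctions, stood at 22.5, 24.6 and 26.5 CPM in lysates 1 to 3 and at 5.81, 4.52 and 5.13 CPM in immunoprecipitates 1 to 3. It likewise showed no overlap, and its log2 fold change was -2.25 (SE 0.22, adjusted p = 0.0323 by edgeR), or -2.15 (SE 0.14, adjusted p = 5.3e-05) without that library.

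COL9A2, a chain of the cartilage FACIT collagen IX, stood at 16.8, 18.6 and 19.1 CPM in lysates 1 to 3 and at 7.08, 5.27 and 4.22 CPM in immunoprecipitates 1 to 3. No values overlapped, but the log2 fold change of -1.72 (SE 0.28) missed the threshold (adjusted p = 0.0621 by edgeR), while -1.67 (SE 0.24) without the library labelled immunoprecipitate 2 passed it (adjusted p = 0.0018). COL16A1, a FACIT found near basement membranes, stood at 19.2, 20.8 and 21.0 CPM in lysates 1 to 3, at 8.58 and 7.29 CPM in immunoprecipitates 1 and 3 and at 22.0 CPM in the library labelled immunoprecipitate 2. For COL16A1 the log2 fold change was -0.69 (SE 0.45, adjusted p = 0.421 by edgeR), and -1.34 (SE 0.14, adjusted p = 0.00036) without that library.

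COL12A1, a FACIT of dense connective tissue, stood at 38.4, 31.1 and 31.3 CPM in lysates 1 to 3, at 9.19 and 9.28 CPM in immunoprecipitates 1 and 3 and at 255 CPM in the library labelled immunoprecipitate 2. The latter was 7.58-fold above the lysate mean, whereas immunoprecipitates 1 and 3 were 3.66-fold and 3.62-fold below it. The log2 fold change was 1.44 (SE 1.29, adjusted p = 0.553 by edgeR) over all libraries and -1.85 (SE 0.14, adjusted p = 0.00011) without the library labelled immunoprecipitate 2. The low FACIT genes COL9A3, COL19A1 and COL20A1 had lysate means of 0.149 to 0.426 CPM. COL9A3 stood at 0.658, 0.393 and 0.227 CPM in lysates 1 to 3, at 0 counts in immunoprecipitates 1 and 3, which makes it at least 9.05-fold lower there against the 3-count floor of each library, and at 0.586 CPM in the library labelled immunoprecipitate 2. It passed without that library (adjusted p = 0.011) and not with it (adjusted p = 0.751). COL19A1 stood at 0.329, 0.307 and 0.216 CPM in lysates 1 to 3, at 0.252 and 0 CPM in immunoprecipitates 1 and 3 and at 0.491 CPM in the library labelled immunoprecipitate 2, with no call in either fit.

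Of the fibrillar genes, COL1A1 and COL1A2 encode the chains of collagen I, the main fibre protein of connective tissue. COL1A1 stood at 29.3, 30.1 and 24.1 CPM in lysates 1 to 3, at 10.4 and 9.92 CPM in immunoprecipitates 1 and 3 and at 148 CPM in the library labelled immunoprecipitate 2. COL1A2 stood at 30.2, 16.8 and 16.3 CPM in lysates 1 to 3, at 0 counts in both immunoprecipitates 1 and 3 and at 125 CPM (6629 counts) in the library labelled immunoprecipitate 2. In that library both genes were above every lysate, 5.34-fold for COL1A1 and 5.94-fold for COL1A2 against the lysate mean. In immunoprecipitates 1 and 3 COL1A1 was 2.66-fold and 2.80-fold below the lysate mean, while COL1A2 was at least 448-fold lower against the 3-count floor of each library. Over all libraries neither passed (adjusted p = 0.614 by edgeR for COL1A1 and 0.844 for COL1A2), and without the library labelled immunoprecipitate 2 both did (adjusted p = 0.00031 and 0.00014).

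COL3A1, which forms fibres beside collagen I in soft tissue, stood at 11.7, 8.81 and 6.80 CPM in lysates 1 to 3, at 2 counts each in immunoprecipitates 1 and 3 and at 10.2 CPM in the library labelled immunoprecipitate 2. The lysate mean was 290.0-fold that of immunoprecipitates 1 and 3 (95% exact Poisson interval 113 to 1064), and the library labelled immunoprecipitate 2 lay within the lysate range. COL3A1 did not pass over all libraries (adjusted p = 0.694 by edgeR) and passed without that library (adjusted p = 3.6e-05). COL5A1, whose product nucleates collagen I fibrils, stood at 9.10, 8.23 and 8.40 CPM in lysates 1 to 3, at 1.53 and 3.82 CPM in immunoprecipitates 1 and 3 and at 493 CPM (26072 counts) in the library labelled immunoprecipitate 2. This 57.4-fold excess over the lysate mean was the largest among the 33 tested collagen genes in any immunoprecipitate. Over all libraries its log2 fold change was 4.27 (SE 2.07, adjusted p = 0.291 by edgeR), and without that library it was -1.67 (SE 0.41, adjusted p = 0.0156). COL5A2, the partner chain, showed a far smaller excess. It stood at 7.42, 5.27 and 5.85 CPM in lysates 1 to 3, at 1.13 and 1.44 CPM in immunoprecipitates 1 and 3 and at 8.97 CPM in the library labelled immunoprecipitate 2 (adjusted p = 0.666 over all libraries, 0.0012 without that library). Per length, the FPKM ratio of COL5A1 to COL5A2 was 0.92 in lysates (SD 0.11, n = 3), 0.88 and 1.75 in immunoprecipitates 1 and 3 and 36.1 in the library labelled immunoprecipitate 2.

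COL11A1, a minor fibrillar chain of cartilage, stood at 13.9, 13.0 and 12.8 CPM in lysates 1 to 3 and at 6.80, 6.41 and 6.99 CPM in immunoprecipitates 1 to 3. The groups did not overlap and the immunoprecipitates lay within 1 CPM of each other. The log2 fold change was -0.97 (SE 0.22, adjusted p = 0.103 by edgeR), and -0.93 (SE 0.15, adjusted p = 0.0027) without the library labelled immunoprecipitate 2. COL27A1, an ancient fibrillar chain of cartilage, stood at 27.9, 32.7 and 32.9 CPM in lysates 1 to 3 and at 34.6, 52.3 and 27.3 CPM in immunoprecipitates 1 to 3. Immunoprecipitate 3 lay just below the lysates and the other two above them, and the log2 fold change was 0.29 (SE 0.28, adjusted p = 0.577 by edgeR), or 0.00 (SE 0.13, adjusted p = 0.981) without the library labelled immunoprecipitate 2. The remaining tested fibrillar genes were COL11A2, with a lysate mean of 0.955 CPM, and COL24A1, with 0.286 CPM, and neither passed in either fit.

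COL17A1, a transmembrane collagen of hemidesmosomes, stood at 0.553, 0.368 and 0.443 CPM in lysates 1 to 3, at 0.315 and 0 CPM in immunoprecipitates 1 and 3 and at 4.35 CPM in the library labelled immunoprecipitate 2. It passed no test (adjusted p = 0.586 by edgeR). Of the other collagens, COL26A1 stood at 0.448, 0.565 and 0.421 CPM in lysates 1 to 3, at 0.0944 and 0 CPM in immunoprecipitates 1 and 3 and at 0.359 CPM in the library labelled immunoprecipitate 2. COL28A1 stood at 0.211, 0.147 and 0.625 CPM in lysates 1 to 3, at 0 in immunoprecipitates 1 and 3 and at 0.416 CPM in the library labelled immunoprecipitate 2. Both were lowest in immunoprecipitates 1 and 3, at 6 counts or fewer there, and COL28A1 alone passed without the library labelled immunoprecipitate 2 (adjusted p = 0.0219). The 9 members that did not pass the filter were COL2A1, COL4A3, COL5A3, COL6A6, COL10A1, COL13A1, COL21A1, COL23A1 and COL25A1. Of these, 2 were chosen for mention after their values were seen, both transmembrane collagens: COL13A1 had 20 counts in lysate 2 and 315 counts in the library labelled immunoprecipitate 2, and COL23A1 had 215 counts in the latter, with 0 in all other libraries for both.

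The collagen genes together took 0.416%, 0.422% and 0.421% of all gene counts in lysates 1 to 3, 0.0756% and 0.0767% in immunoprecipitates 1 and 3 and 0.227% in the library labelled immunoprecipitate 2. The share was thus low in every immunoprecipitate, and lowest in those with the excess of VMP1 RNA. COL4A1 and COL4A2 made up 67.2% ± 0.64 (SD, n = 3) of the collagen counts in lysates, 37.4% and 43.6% in immunoprecipitates 1 and 3 and 23.4% in the library labelled immunoprecipitate 2. COL8A1 made up 6.98% ± 0.04 (SD, n = 3) in lysates, 17.7% and 18.1% in immunoprecipitates 1 and 3 and 3.70% in the library labelled immunoprecipitate 2. The fibrillar class made up 2.69% ± 0.33 (SD, n = 3) in lysates, 8.12% and 7.24% in immunoprecipitates 1 and 3 and 36.6% in the library labelled immunoprecipitate 2. In the latter, COL5A1 alone held 21.2% of the collagen counts and COL12A1 10.9%, against 0.195% ± 0.02 and 0.765% ± 0.12 (SD, n = 3) in lysates. Without COL4A1 and COL4A2, the remaining collagens took 0.136%, 0.136% and 0.141% of all counts in lysates 1 to 3, 0.0474% and 0.0433% in immunoprecipitates 1 and 3, and 0.174% in the library labelled immunoprecipitate 2, which then lay above the lysates.

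**Figure D3:**
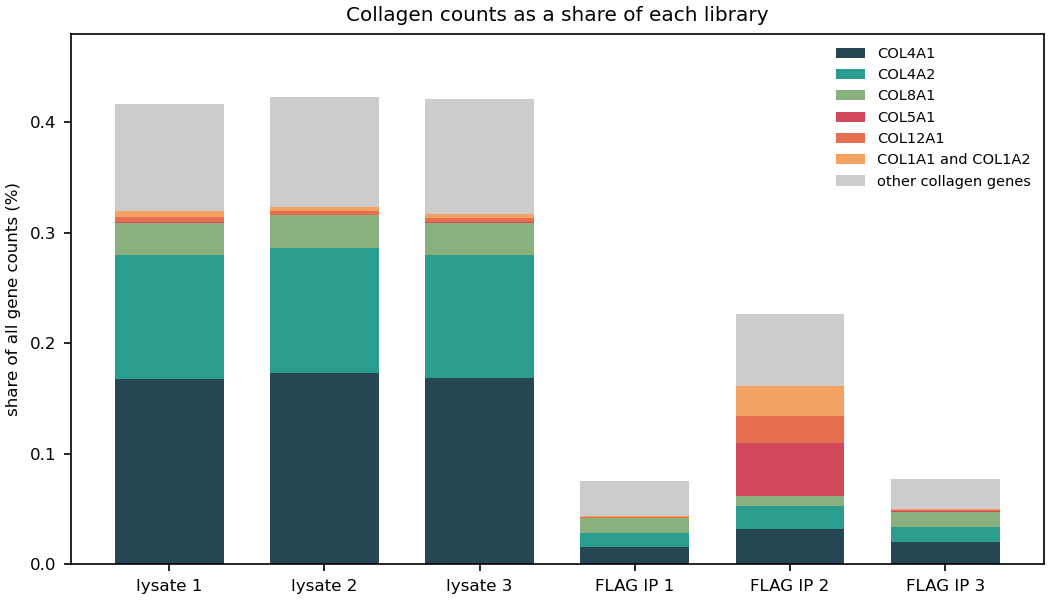
Stacked bars from 0 of the share (%) of all gene counts that fell on collagen genes in each of the 6 libraries, split by gene. The lysates reach 0.416% to 0.422%, mostly COL4A1 and COL4A2, immunoprecipitates 1 and 3 reach 0.0756% and 0.0767%, and the library labelled immunoprecipitate 2 reaches 0.227% with COL5A1 and COL12A1 as visible blocks.

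Some genes that mark other cell types moved along with part of the group, while others of the same lists did not. Among the more abundant collagens, COL1A2, COL3A1 and COL6A3 had the highest ratios of lysate 1 to the mean of lysates 2 and 3. They were chosen after their values were seen. Their ratios were 1.82, 1.5 and 1.56, beside 0.945 for COL4A1. COL5A2 and COL12A1 were at 1.33 and 1.23. COL1A1, the partner chain of COL1A2, was at 1.08, and COL6A1 and COL6A2 were at 0.929 and 0.829. For the summed fibroblast, endothelial and tubule lists given below, the ratio was 0.958, 1.20 and 0.946. The summed level of 20 neutrophil markers was 1.67-fold higher in lysate 1, at 719 CPM against 448 and 415 CPM. It was 143 and 19.7 CPM in immunoprecipitates 1 and 3 and 504 CPM in the library labelled immunoprecipitate 2. Of those markers, 20 of 20 were below all lysates in immunoprecipitate 3 (51.4% of all tested genes), 13 in immunoprecipitate 1 (45.9%) and 5 in the library labelled immunoprecipitate 2 (42.1%). Above all lysates were 4 markers in immunoprecipitate 1 (41.7% of all tested genes), 0 in immunoprecipitate 3 (39.4%) and 1 in the library labelled immunoprecipitate 2 (40.9%). ELANE, MPO and CEACAM8 were under 1 CPM in every library, and 4 of the 20 were at 0 in immunoprecipitate 3.

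The fibroblast list other than collagens held 14 genes in the table, with a summed level of 724 to 759 CPM in lysates, 201 and 235 CPM in immunoprecipitates 1 and 3 and 731 CPM in the library labelled immunoprecipitate 2. LOX, also a member of the crosslinking list, supplied 551 CPM of that last sum, against 128 to 139 CPM in lysates. FBN1 and FBLN1, the most abundant of the list in lysates, fell from 276 to 292 and 189 to 212 CPM there to 60.9 and 40.1 CPM in that library. The near equality of that sum to the lysates thus does not hold for the single genes. The number of list genes at 0 was 2 in immunoprecipitate 1, 7 in immunoprecipitate 3 and 1 in the library labelled immunoprecipitate 2. DCN, which encodes the small proteoglycan decorin on collagen fibrils, stood at 21.9, 16.7 and 13.9 CPM in lysates 1 to 3, at 0.189 and 0.438 CPM in immunoprecipitates 1 and 3 and at 16.9 CPM in the library labelled immunoprecipitate 2. PDGFRA, a receptor for platelet-derived growth factor, and MMP2, a gelatinase, had 16 and 14 counts in immunoprecipitate 1 and 0 in immunoprecipitate 3, while the library labelled immunoprecipitate 2 stood above all lysates for both. LUM, FBLN1 and FBN1, matrix genes of the same list, fell across all 3 immunoprecipitates, as did COL4A1 and COL14A1: LUM stood at 83.4, 87.8 and 91.3 CPM in lysates and at 12.3, 18.0 and 13.5 CPM in immunoprecipitates 1 to 3 (adjusted p = 0.0323 by edgeR). Below all lysates were 11, 4 and 12 of the 14 fibroblast genes in immunoprecipitates 1 to 3, against 45.9%, 42.1% and 51.4% of all tested genes. Above all lysates were 1, 5 and 1 of them, against 41.7%, 40.9% and 39.4%. TWIST1, named after its values were seen, went another way. It stood at 3.44 to 3.66 CPM in lysates, at 7.59 and 8.03 CPM in immunoprecipitates 1 and 3 and at 1.19 CPM in the library labelled immunoprecipitate 2. The tubule list summed to 4181 to 4491 CPM in lysates and 2347 to 2674 CPM in immunoprecipitates, with 17, 13 and 16 of 19 genes below all lysates, beside the same shares of all genes. The endothelial list summed to 43.8 to 53.4 CPM and 7.59 to 36.3 CPM, with 5, 2 and 6 of 9 genes below all lysates (45.9%, 42.1% and 51.4% of all genes), and CDH5 was at 0 in lysates 2 and 3 and in immunoprecipitates 1 and 3. The part of these marker levels in the collagen results was not tested.

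**Figure D4:**
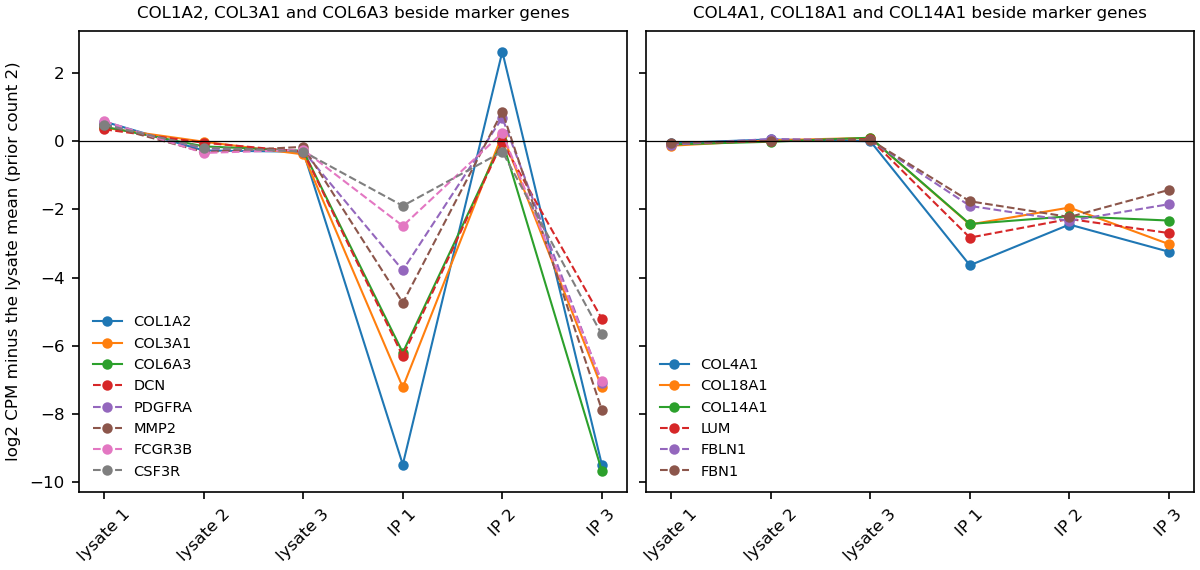
Log2 CPM minus the lysate mean (prior count 2) in each of the 6 libraries for 3 collagen genes (solid lines) and marker genes (dashed lines) in each panel; lines join values of 1 gene and imply no order of libraries. COL1A2, COL3A1 and COL6A3 lie near 0 or above it in the library labelled immunoprecipitate 2 and at -6.20 or below in immunoprecipitates 1 and 3, while COL4A1, COL18A1 and COL14A1 lie between -1.95 and -3.64 in all 3 immunoprecipitates. The markers drawn are a part of their lists picked to show these patterns, and other members such as TWIST1 differ from both panels.

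Genes of the collagen pathway were read from 5 lists of genes that are not collagens. Of 20 enzymes and chaperones that modify procollagen in the ER, edgeR called 0 over all 6 libraries, and 17 lower and 0 higher without the library labelled immunoprecipitate 2. Over all tested genes, 0.5% were lower and 0.16% higher over the 6 libraries, and 27.2% and 23.9% without that library. Their median log2 fold change was -0.45 over all libraries and -0.96 without that library, beside 0.06 and -0.06 for all genes. P4HB, the shared subunit of prolyl 4-hydroxylase, stood at 1593, 1691 and 1726 CPM in lysates 1 to 3 and at 768, 991 and 691 CPM in immunoprecipitates 1 to 3 (adjusted p = 0.0978). All its immunoprecipitates lay below the lysates. P3H3, a prolyl 3-hydroxylase family member, stood at 90.3, 99.1 and 99.0 CPM in lysates 1 to 3 and at 53.7, 60.7 and 47.0 CPM in immunoprecipitates 1 to 3 (adjusted p = 0.0909). SERPINH1, the collagen chaperone HSP47, was chosen after its values were seen: it stood at 277, 308 and 365 CPM in lysates 1 to 3, at 69.9 and 62.0 CPM in immunoprecipitates 1 and 3 and at 864 CPM in the library labelled immunoprecipitate 2. COL12A1 and COL1A1 were likewise below all lysates in immunoprecipitates 1 and 3 and above them in the library labelled immunoprecipitate 2. Of all tested genes, 16.4% showed this pattern, and in this list PLOD1, PLOD3, COLGALT1, PPIB, HSPA5, FKBP14 and P3H1 did too.

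Of 14 genes for export of collagen from the ER, edgeR called 0 over all libraries, and 7 lower and 5 higher without the library labelled immunoprecipitate 2, with medians of 0.07 and -0.50 on the log2 scale. Of all tested genes, 27.2% were lower and 23.9% higher without that library. The 5 higher, named after their values were seen, were MIA3 (TANGO1), MIA2, SAR1A, SAR1B and TRAPPC2. SAR1B stood at 34.8, 35.9 and 35.5 CPM in lysates 1 to 3, at 101 and 89.7 CPM in immunoprecipitates 1 and 3 and at 45.2 CPM in the library labelled immunoprecipitate 2, above lysate in all of them (adjusted p = 0.133 by edgeR over all libraries, 1.9e-05 without that library). TFG, which organises ER exit sites, stood at 198, 208 and 204 CPM in lysates and at 116, 151 and 97.7 CPM in immunoprecipitates 1 to 3 (adjusted p = 0.138). MIA3 itself stood at 107, 107 and 104 CPM in lysates 1 to 3, at 161 and 156 CPM in immunoprecipitates 1 and 3 and at 109.7 CPM in the library labelled immunoprecipitate 2.

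Among 16 tested genes for procollagen cleavage and crosslinking, PXDN alone was called lower over all libraries (0.5% of all tested genes were). Without the library labelled immunoprecipitate 2, 10 were lower (27.2% of all genes) and 0 higher (23.9%), and the median log2 fold change was -0.66 over all libraries and -1.0 without it. PXDN, the peroxidase that crosslinks collagen IV, stood at 171, 181 and 190 CPM in lysates 1 to 3 and at 37.5, 36.6 and 34.8 CPM in immunoprecipitates 1 to 3. Its immunoprecipitates were close together and well below lysate, with a log2 fold change of -2.31 (SE 0.16, adjusted p = 0.0323 by edgeR). Among 12 collagen receptor genes, ITGA3, an integrin chain that mainly binds laminin, fell over all libraries (0.5% of all genes), from 1063, 1118 and 1076 CPM in lysates to 424, 363 and 414 CPM in immunoprecipitates 1 to 3 (log2 fold change -1.44, SE 0.18, adjusted p = 0.0426 by edgeR). Without the library labelled immunoprecipitate 2, 7 receptors were lower (27.2% of all genes) and 1, ITGA11, was higher (23.9%), and the list's median log2 fold change was -0.64 over all libraries and -1.43 without that library. ITGA11 was near the floor, at 0.0527, 0.0982 and 0.0455 CPM in lysates 1 to 3 and 0.897 and 0.344 CPM in immunoprecipitates 1 and 3.

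Among 20 other basement membrane components, 6 were called lower over all libraries (0.5% of all tested genes) and 0 higher (0.16%). Without the library labelled immunoprecipitate 2, 18 were called lower (27.2%) and 1 higher (23.9%). Their median log2 fold change was -1.40 over all libraries and -1.34 without that library. The 4 with the lowest adjusted p were NID1 and NID2, which encode the nidogens that link laminin to collagen IV, TINAGL1, and SPARC, a collagen-binding glycoprotein. SPARC stood at 1690, 1774 and 1742 CPM in lysates 1 to 3 and at 341, 512 and 338 CPM in immunoprecipitates 1 to 3, a log2 fold change of -2.13 (SE 0.25, adjusted p = 0.0379 by edgeR). NID1 stood at 248, 267 and 273 CPM in lysates and at 53.8, 47.7 and 73.8 CPM in immunoprecipitates 1 to 3 (log2 fold change -2.17, SE 0.22, adjusted p = 0.0333). The log2 fold change was -2.09 (SE 0.19, adjusted p = 0.0323) for NID2 and -2.0 (SE 0.21, adjusted p = 0.0343) for TINAGL1. The other 2, outside the rule for naming, were FN1 and AGRN. The calls in these lists were absent when lysate 1, 2 or 3 or immunoprecipitate 1 or 3 was left out.

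Counts were also deposited per transcript, where the assignment between overlapping transcripts is an estimate. Of 245 collagen transcripts listed, 73 were tested and edgeR called 0 over all 6 libraries, as it called 0 of all 62534 transcripts (0.0%). At an unadjusted p under 0.05 there were 16 collagen transcripts and 6044 of all transcripts, and the lowest adjusted p of a collagen transcript was 0.24. Without the library labelled immunoprecipitate 2, 17 of 93 were lower (6.1% of 73009 transcripts) and 2 were higher (2.45%). Among the 19 transcripts that led each abundant gene in lysate, 15 had a negative log2 fold change over all libraries and 11 were called lower without that library. They were picked by their lysate level, which by itself favours lower values in the immunoprecipitates. The share of negative changes over all transcripts is not given here. The leading transcript of COL4A1, ENST00000375820, stood at 1888, 2004 and 1946 CPM in lysates 1 to 3 and at 136, 337 and 159 CPM in immunoprecipitates 1 to 3 on the transcript scale, and held 97.5% to 99.95% of the gene's transcript counts in every library.

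Transcripts typed as retained intron took 0.199%, 0.146% and 0.245% of collagen transcript counts in lysates 1 to 3, 9.72% and 4.01% in immunoprecipitates 1 and 3 and 1.29% in the library labelled immunoprecipitate 2. For all genes the share was 5.39% to 5.64% in lysates, 8.75% and 8.77% in immunoprecipitates 1 and 3 and 6.04% in the library labelled immunoprecipitate 2. Some genes with a large such share are given here, chosen after their values were seen. COL7A1 had 75.2% of its counts in immunoprecipitate 1 in the retained-intron transcript ENST00000487017, against 0.306% to 1.45% in lysates, 0% in immunoprecipitate 3 and 4.38% in the library labelled immunoprecipitate 2. COL4A5 had 15.0% and 47.9% in the retained-intron transcript ENST00000644079 in immunoprecipitates 1 and 3, against 0.25% to 1.22% in lysates and 1.77% in the library labelled immunoprecipitate 2. The retained-intron transcript ENST00000649720 of COL4A1 was 1 of the 2 collagen transcripts called higher without that library (log2 fold change 4.12, SE 0.67, adjusted p = 0.04 by edgeR). It held 1.21% and 2.43% of the gene's transcript counts in immunoprecipitates 1 and 3 and 0.0519% in the library labelled immunoprecipitate 2, against 0.00701% to 0.0092% in lysates.

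The other was ENST00000359759 of COL18A1. In lysates 1 and 2 that gene's counts lay mainly in the transcript ENST00000355480 (86.9% and 87.4%). In lysate 3 that transcript held 44.4%, and ENST00000651438 held 55.1%, against 4.93% and 11.8% in lysates 1 and 2. ENST00000359759 held 0.0183% to 0.211% in lysates. In immunoprecipitates 1 and 3 ENST00000359759 held 99.8% and 98.3%. In the library labelled immunoprecipitate 2 it held 0.493%, and ENST00000651438 held 93.1%. Such switches also occurred between lysates: the COL11A1 transcript ENST00000370096 held 98.1%, 0% and 99.2% of the gene's counts in lysates 1 to 3. The median change of the leading transcripts' share, immunoprecipitate minus lysate mean, was -9.70 percentage points over the abundant genes. Picking the leading transcripts by lysate level favours a negative change. Leaving out each library in turn, an alternative chosen after seeing the data, it ran from -13.37 to -1.82 percentage points, at -1.82 without immunoprecipitate 1 and -12.89 without the library labelled immunoprecipitate 2.

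The 33 tested collagen genes share libraries and are not independent replicates. Across them, Spearman's rho between transcript length and the gene's shift was 0.20, 0.16 and 0.26 in immunoprecipitates 1 to 3. Across all 20593 tested genes it was -0.002, -0.02 and 0.06. The collagen genes had a median transcript length of 6422 nucleotides, against 2783 for all tested genes. An annotated gene on the opposite strand overlapped 7 of the 19 abundant collagens. Apart from the collagen IV pair and COL18A1, the overlapping genes were at 0.145 CPM or less in lysates.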

How the data were processed

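The 6 libraries of HK2 RNA (3 lysate, 3 FLAG immunoprecipitate) were grouped by title. Titles name VMP1 in each immunoprecipitate, whereas the treatment labels give the plasmid a different number from 1 to 6 in each sample; titles were used. Per the labels' protocols, RNA was selected with oligo(dT) and libraries were made with dUTP strand marking. Build GRCh38.p14 and the tools StringTie 2.1.6, HISAT2 2.2.1, cutadapt 1.9, DESeq2 and edgeR appear in the submitters' processing notes without their roles; strand use in counting is not stated in the sources used here. The authors deposited whole-number gene counts and transcript counts, per the file headers, and these were tested as deposited. The authors' deposited FPKM values, per length and library, served for ratios between genes and as an alternative scale.

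Tests used edgeR 4.0.16 (quasi-likelihood, TMM, default filter; R 4.3.3) over all genes or transcripts, called at 0.05 after Benjamini-Hochberg adjustment; the SE was taken as the size of the log2 fold change over the root of its F statistic. The scripts were tested on simulated data. DESeq2 1.42.0, limma 3.58.1 with library weights or on log2(FPKM + 1 or 0.1), other scalings and filters, a replicate block and leaving out each library were alternatives. The main fits did not pair libraries by replicate number, since the titles state no pairing. The deviations of same-numbered libraries from their group means correlated at -0.01, -0.05 and 0.01 over 20593 genes. For differently numbered libraries the values ran from -0.07 to 0.06. With 3 libraries per group, and 1 immunoprecipitate unlike the others, such values cannot decide whether the numbers pair the libraries. Totals per library limit precision as given by the 3-count floors (0.0341 to 0.0567 CPM).

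Collagen genes with a lysate mean of at least 10 CPM and called ones are given in full, then up to 2 of the remaining tested genes per class; pathway lists name up to 4 called members, or 2 where none was called. COL5A2, COL13A1, COL23A1 and other genes so marked were added after their values were seen. The members and lists were chosen with earlier results of these data known, so no list was tested as a set. Marker genes were read from the same fit; 1 tubule, 1 fibroblast and 1 endothelial marker and 2 cleavage genes of the lists were not analysed here.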

Additional observations from a re-analysis of the deposited data

How the results depend on the processing

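No collagen gene was called higher under any alternative run, and the median log2 fold change of the collagen genes was negative under each. DESeq2 could not call COL1A1, COL1A2, COL4A6, COL5A1 and COL12A1, for which it gave no p-value. With the replicate block, edgeR called 0 genes in either direction, 0 collagen genes and 0 genes of the 5 pathway lists, with 2658 genes at an unadjusted p under 0.05. Whether the numbers pair the libraries is not known. Leaving out each library in turn gave 0 to 5997 genes lower and 0 to 5276 higher, 0 to 22 collagen genes lower, 0 to 59 pathway genes lower and 0 to 7 higher, 0 to 17 collagen transcripts lower and 0 to 2 higher, and a VMP1 log2 fold change of 2.11 to 3.07; the highest values came without the library labelled immunoprecipitate 2, and leaving out any other library gave no call, with 2114 to 3727 genes at an unadjusted p under 0.05. Without the count filter, 33 genes were lower and 7 higher (main 103 and 33), 3 collagens lower (main 5) and 4 pathway genes lower (main 8); a filter of 1 CPM in 3 libraries gave 83 genes higher. DESeq2 gave 1215 genes lower and 1941 higher, 9 collagens lower, 25 pathway genes lower and 2 higher, and 2.61 for VMP1, which then passed. Library weights in limma gave 5370 lower and 4806 higher, 22 collagens lower, 59 pathway genes lower and 7 higher, and 2.93 for VMP1, which also passed. Limma on log2(FPKM + 1) gave 21 genes higher. The collagen share of counts in immunoprecipitates was 0.301 of that in lysates and 0.639 without COL4A1 and COL4A2. Leaving out each library in turn, chosen after seeing the data, gave 0.181 to 0.361 and 0.329 to 0.802; without the library labelled immunoprecipitate 2, whose share lies above the lysates once COL4A1 and COL4A2 are left out, they were 0.181 and 0.329. The change of the leading transcripts' share ran from -13.37 to -1.82 percentage points, the last without immunoprecipitate 1. Log2 fold changes that turned negative were those of COL12A1 (-1.71 with weights, -0.027 on log2(FPKM + 0.1), -0.59 with the replicate block, -1.85 without the library labelled immunoprecipitate 2), COL4A5 (-0.90 with weights, -0.17 with the block, -0.99 without that library), COL1A1 (-1.33, -0.29 and -1.44 in the same order) and COL1A2 (-10.85 with weights, -0.26 on log2(FPKM + 1), -1.91 on log2(FPKM + 0.1), -7.20 with the block, -13.62 without that library). Over the fits that left out 1 library, these ran from -1.85 to 1.95 for COL12A1, -0.99 to 0.86 for COL4A5, -1.44 to 1.49 for COL1A1 and -13.62 to 1.55 for COL1A2. The size of the negative COL1A2 values depends on the prior count or the value added to FPKM. For each of these genes the library labelled immunoprecipitate 2 alone lay above all lysates, and the cause of the changes was not tested. Scaling by library totals moved the median of all genes from 0.06 to 0.19 and that of the collagens from -0.84 to -0.72. Depth limits the tested collagens with a lysate mean under 1 CPM, which had 0 to 89 counts in immunoprecipitates 1 and 3.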
